A study of Mus musculus with 30 samples.

Results

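Hypothalamic gene expression was compared between EB-treated and vehicle-treated newborn female mice 12 h after the injection. The 6 arrays used were those whose GEO titles give the 12 h groups, 3 with EB and 3 with vehicle, out of 30 arrays in the series. EB, estradiol benzoate, is an esterified estrogen that is cleaved to estradiol in the body. The EB group received 7.5 μg of EB in peanut oil under the skin on the day of birth, and the vehicle group received the oil alone. Both groups were C57BL/6J females, and the labels give no other allele or treatment. Each array held RNA of the whole hypothalamus of 1 mouse, cut out between the optic chiasm and the mammillary bodies. The sources used here do not give the litters or the clock time of collection. The question was which genes had answered to a single neonatal dose of estrogen at 12 h.

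Estradiol acts through estrogen receptors, which are transcription factors that bind DNA once the hormone is bound. In male rodents testosterone from the newborn testis is converted to estradiol in the brain, and this estradiol directs much of the masculinization and defeminization of the hypothalamus. A dose given to a newborn female therefore places a male-typical signal in a female brain. The hypothalamus also holds small groups of peptide neurons, among them the hypocretin (orexin) and melanin-concentrating hormone neurons of the lateral hypothalamus, which regulate arousal and feeding.

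Values are MAS5 signals, each array scaled to the mean of the 30 array medians, 41.3, and called signals below. Deposited medians were 52.9 to 62.5 in EB arrays and 61.5 to 66.9 in vehicle arrays and at most 44.0 at the other times. The EB and vehicle medians were compared by an exact test (exact permutation test, two-sided, p = 0.2, where 0.1 is the smallest possible with 3 against 3). EB replicate 3 stood apart most, with correlations of 0.979 to 0.982 with the other 5 arrays, while the remaining pairs lay between 0.981 and 0.990. EB replicate 2 had correlations of 0.985 to 0.990 with the vehicle arrays, against 0.984 with EB replicate 1 and 0.979 with EB replicate 3. Hypothalamic peptide genes such as Avp and Pmch had high signals, and 8 of the 10 pituitary markers on the array were below the signal filter. Xist read 4179 to 5016 in these 6 arrays and the brightest of 3 Y-linked genes read 3.69 to 11.3.

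At 12 h no probe set passed an adjusted p of 0.05 by limma (0 of 27022 probe sets tested, 0%), and the smallest adjusted p was 0.358. An unadjusted p under 0.05 was reached by 855 probe sets that were higher with EB (3.16%) and by 919 that were lower (3.4%), or 6.57% in both directions together. On the deposited values without scaling this split was 89 higher and 1452 lower, and the median log2 fold change of all probe sets moved to -0.15, against -0.01 with scaling. Signals of the EB and vehicle arrays did not overlap for 1425 probe sets with EB above (5.27%) and 1640 with EB below (6.07%). By the ratio of means 26 probe sets were at 2-fold or more (0.0962%) and 7 at 0.5-fold or less (0.0259%). Without scaling these were 9 and 20, and with an array left out they ranged from 13 to 81 and from 11 to 48. limma with array weights called 23 probe sets, 15 of them higher. The methods' test, made on the deposited linear signals, called 518, of which 13 were higher, and 15 when the p-values were first multiplied by the 5 times. In simulated data for this comparison, 86% of the 2-fold changes and 36% of the 1.5-fold changes passed. The simulated noise was independent between probe sets and held no variation shared within an array. These shares therefore need not hold for the real arrays. Standard errors (SE) below are those of the log2 fold change in this model. The genes are described by their signals. None of their 12 h differences passed the adjustment over all probe sets by limma on all arrays without array weights. Some passed in the other fits, among them Hcrt by the methods' test, and Timp3 and Grin2b with array weights and by the methods' test.

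Hcrt and Pmch, the peptide genes of the lateral hypothalamus, were lower with EB in every array. Hcrt, which encodes the hypocretin precursor, had signals of 86.6, 63.6 and 51.6 in EB-treated mice, against 159, 167 and 146 in vehicle-treated mice. The groups were far apart, with the highest EB array well under the lowest vehicle array, and Hcrt stood at -1.26 on the log2 scale (SE 0.34, limma adjusted p = 0.55). Pmch, which encodes the precursor of melanin-concentrating hormone, had signals of 681, 706 and 726 in EB-treated mice, against 1123, 1307 and 1110 (1109.7) in vehicle-treated mice. The 3 EB arrays were close together, all under the vehicle arrays, and Pmch stood at -0.74 on the log2 scale (SE 0.26, limma adjusted p = 0.67). Leaving out any of the 6 arrays moved the Hcrt value between -1.46 and -1.08 and the Pmch value between -0.78 and -0.67. By the methods' test Hcrt had an adjusted p of 0.0024 and Pmch one of 0.018, taken on the unscaled signals. With the p-values first multiplied by the 5 times, these were 0.0119 for Hcrt and 0.0922 for Pmch. In bulk tissue, fewer cells of a type and less RNA per cell cannot be told apart.

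The vehicle-treated mice at 12 h held the highest mean level of Hcrt among the 10 groups. In EB-treated mice Hcrt averaged 118 ± 20.1 after 1 h, 95.8 ± 14.2 after 3 h, 74.5 ± 43.4 after 6 h, 67.3 ± 17.8 after 12 h and 56.2 ± 28.2 after 24 h (SD, n = 3 each). In vehicle-treated mice it averaged 79.4 ± 16.2 after 1 h, 98.0 ± 18.6 after 3 h, 54.9 ± 6.55 after 6 h, 157 ± 10.6 after 12 h and 93.2 ± 40.5 after 24 h (SD, n = 3 each). The EB mean at 12 h thus lay between the EB means of 6 h and 24 h, while the vehicle mean at 12 h lay above all other vehicle means. Pmch had the same order at 12 h, with 704 ± 22.7 in EB-treated mice, inside the 539 to 1093 of the other EB means. Its vehicle mean was 1179.9 ± 110.02, above the 612 to 960.2 of the other vehicle means. The 24 h effects were -0.80 for Hcrt and -0.61 for Pmch on the log2 scale, and the 1 h effects 0.58 and 0.49. The difference between the 12 h effect and the mean effect of the other times passed for no probe set by limma (smallest adjusted p = 0.122), whereas an unadjusted p under 0.05 was reached by 2887 probe sets (10.7%).

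**Figure D1:**
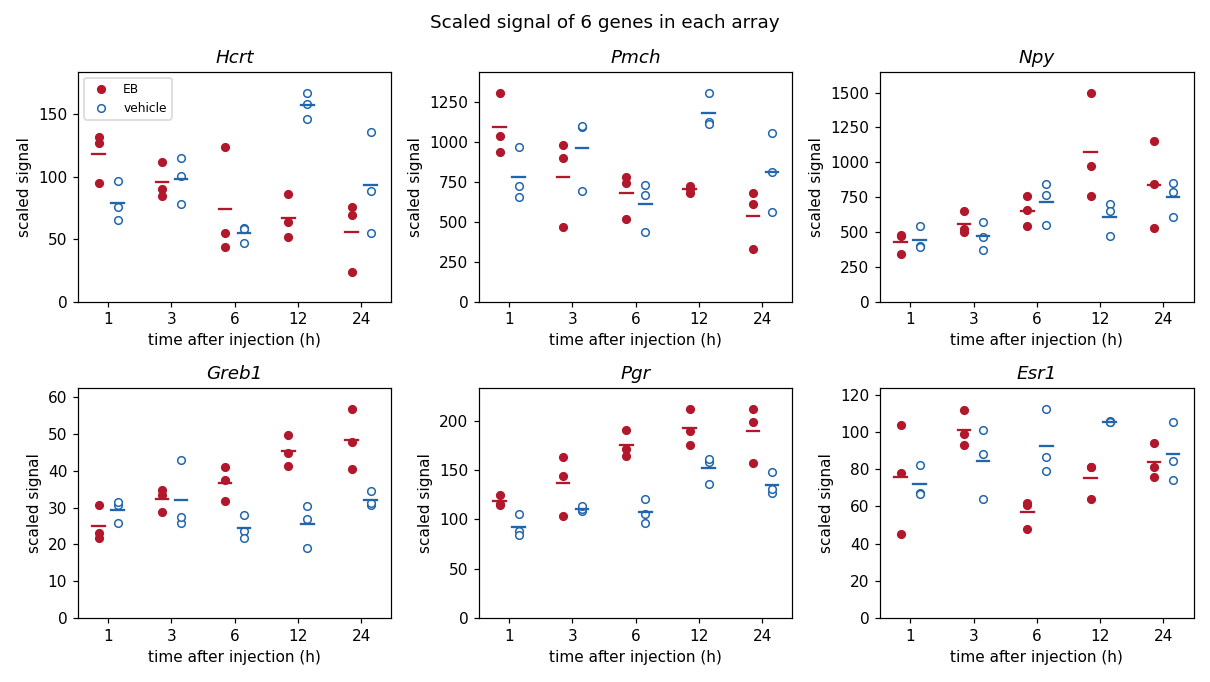
Scaled signal (y axis, MAS5 signal units) of Hcrt, Pmch, Npy, Greb1, Pgr and Esr1 in each array by hours since the injection (x axis), with filled circles for EB, open circles for vehicle and short bars at the means of 3 arrays. At 12 h the 3 EB arrays lie below the 3 vehicle arrays for Hcrt, Pmch and Esr1 and above them for Npy, Greb1 and Pgr.

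The 250 bases before the annotated start of each peptide gene (RefSeq, GRCm38.p6) are shown because the lateral hypothalamic results turn on these peptide genes. The Hcrt window is chr11:100762932-100763181 on the minus strand and the Pmch window is chr10:88090822-88091071 on the plus strand. Neither holds the palindromic estrogen response element, GGTCA and TGACC with 3 free bases between, which 0.0639% of all 32851 promoter windows hold. Neither holds a single arm of it, GGTCA on either strand, which 35.2% hold.
Hcrt: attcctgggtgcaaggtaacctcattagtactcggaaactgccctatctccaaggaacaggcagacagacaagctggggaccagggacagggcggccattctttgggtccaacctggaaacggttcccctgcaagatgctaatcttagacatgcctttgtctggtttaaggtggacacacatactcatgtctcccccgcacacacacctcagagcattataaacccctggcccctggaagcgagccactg
Pmch: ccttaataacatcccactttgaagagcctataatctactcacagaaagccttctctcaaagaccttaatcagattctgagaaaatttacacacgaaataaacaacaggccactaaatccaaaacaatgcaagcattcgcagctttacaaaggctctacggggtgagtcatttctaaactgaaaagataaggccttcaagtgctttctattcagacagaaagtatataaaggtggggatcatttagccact

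Other genes of the lateral hypothalamic peptide neurons, their receptors and their co-expressed peptides did not follow Hcrt and Pmch as a group. The list of 12 measured genes includes Hcrt and Pmch themselves. Of the 12, 3 were lower at an unadjusted p under 0.05 and 0 were higher. Of all 12388 genes, taken by their brightest probe set, 2.93% were lower and 3.08% higher. Besides Hcrt and Pmch, Tacr3 was the only member counted. Tacr3, the neurokinin B receptor, had signals of 121, 110 (109.7) and 82.2 in EB-treated mice, against 125, 129 and 130.1 in vehicle-treated mice, without overlap. Scg2, a granule protein of peptide cells, was above all vehicle arrays with 3017, 2764 and 2795 in EB-treated mice, against 2508, 2590 (2589.8) and 2653 in vehicle-treated mice. Pdyn, the prodynorphin gene that hypocretin neurons also use, read 121, 88.8 and 148 in EB-treated mice, against 76.2, 108 and 85.2 in vehicle-treated mice, so the groups overlapped. By their brightest probe sets, the receptors Hcrtr1, Hcrtr2 and Mchr1 overlapped as well, with log2 fold changes of -0.30, 0.33 and -0.17. The list median, with Hcrt and Pmch included, was -0.18, against -0.01 over all genes, and -0.06 without EB replicate 3.

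Among the feeding peptides of the arcuate nucleus, Npy was the one with separate groups. Npy, which encodes neuropeptide Y, a strong stimulant of food intake, had signals of 975, 755 and 1499 in EB-treated mice, against 473, 704 and 649 in vehicle-treated mice. EB replicate 3 was highest and EB replicate 2 only just above the vehicle arrays, and Npy stood at 0.78 on the log2 scale (SE 0.24, limma adjusted p = 0.58). Pomc, the precursor of the satiety peptide α-MSH, read 173, 112 and 164 in EB-treated mice, against 141, 108 and 121 in vehicle-treated mice, with overlap. Of 9 measured feeding genes 1 was higher and 0 lower at an unadjusted p under 0.05, beside 3.08% and 2.93% of all genes, and the median log2 fold change was 0.26. Lepr, the leptin receptor gene, overlapped at 12 h with a log2 fold change of 0.74, and at 24 h it stood at -2.21.

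Of further peptide hormone genes, Avp, Ghrh and Vip had the higher mean with EB and Tac1 the lower. Avp, which encodes vasopressin, read 1893, 1466 and 2214 in EB-treated mice, against 1516, 1068 and 1310.4 in vehicle-treated mice, so EB replicate 2 lay within the vehicle range. Ghrh, the growth hormone releasing hormone gene, read 135, 90.3 and 136 in EB-treated mice, against 85.2, 70.6 and 85.8 in vehicle-treated mice, without overlap (log2 fold change 0.56). Vip, the vasoactive intestinal peptide gene, read 125, 77.8 and 117 in EB-treated mice, against 70.0, 74.5 and 72.3 in vehicle-treated mice, also without overlap (0.53). Of 9 hypophysiotropic and magnocellular hormone genes 2 were higher and 0 lower at an unadjusted p under 0.05, and of 12 other neuropeptide genes 1 was higher and 0 lower, beside 3.08% and 2.93% of all genes. Tac1, the substance P precursor gene, read 949, 995 and 1058 in EB-treated mice, against 1214, 1152 and 1406 in vehicle-treated mice. Its groups did not overlap, with EB below, and it did not reach an unadjusted p under 0.05. The median log2 fold change was 0.06 in the first list, with 6 of 9 positive. It was -0.05 in the list of other neuropeptide genes, with 5 of 12 positive, beside 47.2% of all genes.

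The progesterone receptor gene Pgr and Greb1, both well-known estrogen targets, were higher with EB in every array by the brightest probe set, and Esr1, which encodes estrogen receptor α, was lower in every array. Greb1 is measured by 2 probe sets of low signal. The first read 45.0, 41.3 and 49.6 in EB-treated mice, against 30.5, 19.1 and 26.9 in vehicle-treated mice, standing at 0.85 on the log2 scale (SE 0.21, limma adjusted p = 0.55). The second stood at 0.77, with its lowest EB array at 44.8 and its highest vehicle array at 31.0. Pgr read 212, 190 (189.9) and 175 in EB-treated mice, against 135, 158 and 161 in vehicle-treated mice, standing at 0.34 on the log2 scale (SE 0.14, limma adjusted p = 0.73), while its other, dimmer probe set stood at 0.13 with overlap. Esr1 read 81.3, 81.0 and 64.1 in EB-treated mice, against 106, 106 and 105 in vehicle-treated mice, standing at -0.49 on the log2 scale (SE 0.21, limma adjusted p = 0.74), and its other probe set stood at -0.50. All 3 genes had the same direction at 6 h, where the log2 fold changes were 0.58 for the first Greb1 probe set, 0.71 for Pgr and -0.70 for Esr1. At 24 h these stood at 0.58, 0.48 and -0.06, and among these genes only the second Greb1 probe set passed there, at 1.17 (limma adjusted p = 0.0017). The median over all 13 measured genes of steroid receptors and estrogen response was 0.06, which was -0.09 on the unscaled signals. Nrip1, a corepressor induced by estrogen, was the remaining one without overlap, with 388, 447 and 378 in EB-treated mice, against 361, 370.0 and 372 in vehicle-treated mice (log2 fold change 0.13).

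The window before one of the 2 annotated Greb1 starts, chr12:16800887-16801136 on the minus strand (RefSeq, GRCm38.p6), is shown because Greb1 is the estrogen target with the largest 12 h difference here. Capitals mark the single arm GGTCA, which reads TGACC on the other strand. The other Greb1 window, chr12:16757240-16757489, holds 2 arms and is not printed. Of 25 promoter windows of the steroid receptor and estrogen response list, 44% hold an arm and 0 hold the palindrome. Of all windows, 35.2% hold an arm and 0.0639% the palindrome.
Greb1: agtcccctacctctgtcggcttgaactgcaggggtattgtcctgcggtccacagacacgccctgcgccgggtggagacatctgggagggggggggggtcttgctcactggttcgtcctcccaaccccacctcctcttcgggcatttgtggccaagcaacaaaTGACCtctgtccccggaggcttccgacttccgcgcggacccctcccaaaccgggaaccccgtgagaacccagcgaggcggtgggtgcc

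The genes of the circadian clock tended to the higher side in the EB arrays. Of 17 measured clock genes, 6 were higher at an unadjusted p under 0.05 and 0 lower, beside 3.08% and 2.93% of all genes, and the EB arrays lay above all vehicle arrays for 8 of the 17 and below them for 0, beside 5.39% and 5.55% of all genes. The median log2 fold change of the list was 0.28. Hlf, a PAR bZIP transcription factor of the clock output, read 140.0, 96.3 and 147 in EB-treated mice, against 77.9, 77.7 and 68.2 in vehicle-treated mice (log2 fold change 0.75, SE 0.20, limma adjusted p = 0.55). Per2, a repressor of the clock loop, read 91.6, 69.4 and 111 in EB-treated mice, against 62.5, 67.4 and 64.2 in vehicle-treated mice. Bhlhe40, which also represses clock genes, read 72.8, 83.1 and 73.0 in EB-treated mice, against 44.2, 61.2 and 54.6 in vehicle-treated mice. In each of these the groups were separate, with EB replicate 2 closest to the vehicle arrays for Hlf and Per2 and highest for Bhlhe40. The nuclear receptor genes Rora, Rorb and Nr1d2 were separate too, at 0.42, 0.31 and 0.35, and so were Dbp at 0.28 and Npas2 at 0.44. Per1 read 160.0, 118 and 198 in EB-treated mice, against 116, 132 and 116 in vehicle-treated mice, with overlap. Arntl, Clock and the cryptochromes overlapped, with Arntl at 0.25, Clock at -0.12 (its 3 other probe sets between -0.24 and 0.12), Cry1 at 0.10 and Cry2 at -0.02. Without EB replicate 3, and likewise without vehicle replicate 1, 3 clock genes had an unadjusted p under 0.05, and on the unscaled signals 1 did. The list median was -0.01 at 6 h and 0.01 at 24 h, and for 0 of the 17 genes did the difference between the 12 h and 24 h effects pass. The E-box CACGTG, which reads the same on both strands, occurs in 26.1% of the 23 promoter windows found for 17 of the listed clock genes, against 6.02% of all windows. It also occurs in 27.3% of 11 windows of the largest lower genes and in 20.0% of 25 windows of the steroid receptor and estrogen response list.

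**Figure D2:**
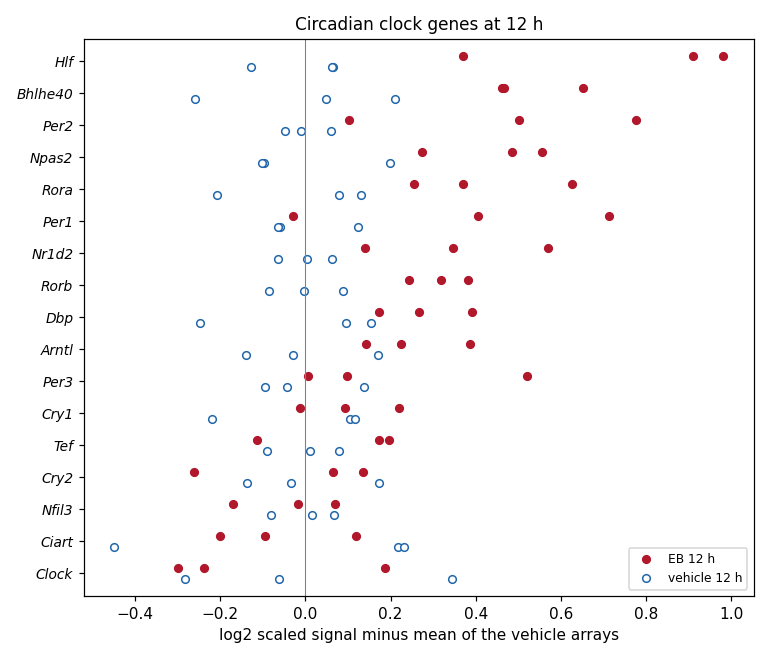
Log2 scaled signal of 17 circadian clock genes minus the mean of the 3 vehicle arrays (x axis, log2 units), with a row for each gene, filled circles for the 3 EB 12 h arrays and open circles for the 3 vehicle 12 h arrays. Genes are ordered by log2 fold change, from Hlf at 0.75 to Clock at -0.12.

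The genes that answer to glucocorticoids, the adrenal stress steroids, included 4 at an unadjusted p under 0.05, all higher, out of 15 measured, beside 3.08% of all genes higher and 2.93% lower. Klf9, a zinc finger factor induced by glucocorticoids and thyroid hormone, has 6 probe sets, at log2 fold changes of 0.23 to 0.67. Its brightest probe set read 650.1, 474 and 958 in EB-treated mice, against 368, 467 and 431 in vehicle-treated mice, so the groups were just separate. Mt1, a metallothionein, read 1422, 990.1 and 2269 in EB-treated mice, against 865, 1175 and 927 in vehicle-treated mice, with overlap, and Mt2 followed it with 1290 (1289.8), 910 (909.9) and 2184 in EB-treated mice, against 804, 1152 and 746 in vehicle-treated mice. In all 3 genes EB replicate 3 was highest by a wide margin. Tsc22d3, also called GILZ, read 496, 450 (449.6) and 509 in EB-treated mice, against 414, 463 and 378 in vehicle-treated mice, with overlap. Fkbp5 and Nr3c1, other genes of this system, stood at -0.07 and 0.02. The list median was 0.28 with all arrays and 0.11 without EB replicate 3, when 1 member kept an unadjusted p under 0.05, and 7 were higher and 1 lower without EB replicate 2.

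By the fixed rule, the 30 genes with the largest differences were taken among those with an unadjusted p under 0.01, separate groups and a mean signal of at least 100 in the brighter group, 15 in each direction from 95 higher and 100 lower genes. The higher 15 ran from 0.56 to 0.87 on the log2 scale. Timp3, an inhibitor of matrix metalloproteinases, read 127, 90.9 and 134 in EB-treated mice, against 55.4, 61.5 and 74.3 in vehicle-treated mice (log2 fold change 0.87, SE 0.19, limma adjusted p = 0.36). Gas1, a membrane protein of growth arrest and Hedgehog signalling, read 273, 146 and 300 (299.7) in EB-treated mice, against 120.3, 146 and 115 in vehicle-treated mice. EB replicate 2 therefore sat at the level of vehicle replicate 2. Pnma3 was more even across arrays, with 204, 191 and 218 in EB-treated mice, against 108, 107 and 135 in vehicle-treated mice. Ddr2, a collagen receptor, stood at 0.68, Sdc4, a heparan sulfate proteoglycan, at 0.63, Htra1, a secreted protease, at 0.62, and Sh3pxd2a, an invadopodium scaffold, at 0.60. The others besides Npy, Hlf and Klf9 were Fcgr3, an Fc receptor of myeloid cells, at 0.75, Glul, glutamine synthetase, at 0.71, Six6, a homeobox factor of the hypothalamus and eye, at 0.59, Lpl, lipoprotein lipase, at 0.57, and Ccdc93 at 0.56. The Glul value came from its dimmer probe set, and the brighter one stood at 0.09. Of the 15, 9 genes have other probe sets, 15 in all, and every one of these had a positive log2 fold change, with a median of 0.43.

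The lower 15 ran from -1.26 to -0.60, with Hcrt first and Pmch the fifth. Cfap298, a cilia gene, read 131, 186 and 144 in EB-treated mice, against 264, 326 and 354 in vehicle-treated mice, while its other probe set stood at -0.04. Prdx4, a peroxiredoxin of the endoplasmic reticulum, read 120.2, 122 and 161 in EB-treated mice, against 221, 231 and 277 in vehicle-treated mice, and its 2 other probe sets stood at -0.06 and -0.00 (-0.0048). Grin2b, a subunit of the NMDA receptor, read 344, 464 and 344 in EB-treated mice, against 569, 612 and 602 in vehicle-treated mice (log2 fold change -0.65, SE 0.14, limma adjusted p = 0.36), with its other probe set at -0.24. The other lower genes were Tatdn1, Runx1t1, Qars, Atr, Gfra2, Minpp1, Hnrnpdl, Pcgf6, C1qtnf2 and Hnrnpd, between -0.77 and -0.60, among them the DNA damage kinase Atr, the neurturin receptor Gfra2 and the RNA-binding proteins Hnrnpd and Hnrnpdl. Of the 15 lower genes, 12 have other probe sets, 29 in all, with a median log2 fold change of -0.09, and 23 of the 29 were negative. Probe sets that the array's maker marks as able to match other transcripts (_x_at) made up 6 of the lower 15 and 1 of the higher 15, beside 5.94% of all probe sets tested.

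**Figure D3:**
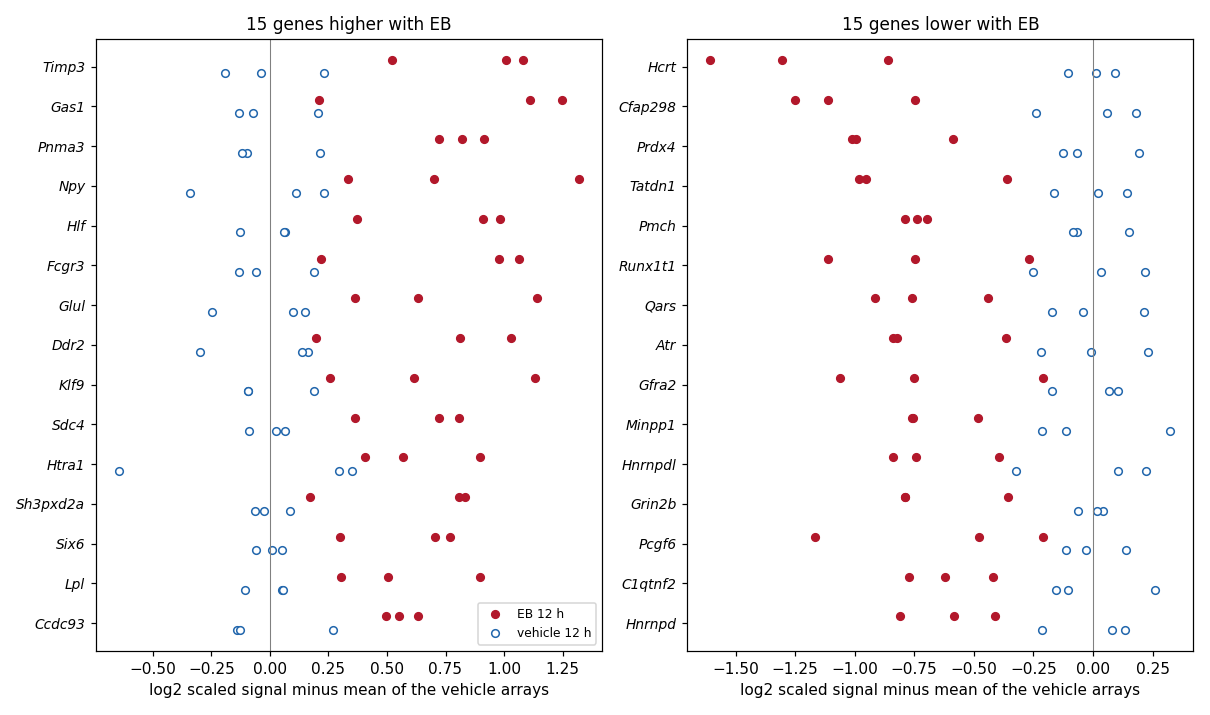
Log2 scaled signal minus the mean of the 3 vehicle arrays (x axis, log2 units) for the 15 genes with the largest higher and the 15 with the largest lower difference, with filled circles for the 3 EB 12 h arrays and open circles for the 3 vehicle 12 h arrays. The genes were chosen for separate groups, so the lack of overlap is fixed by the rule. EB replicate 2 is the lowest EB array for every higher gene except Htra1 and Ccdc93. It is the highest EB array for every lower gene except Hcrt, Prdx4 and Pmch.

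The direction at the neighbouring times differed between the higher and the lower genes. At 6 h the log2 fold change had the 12 h sign for 1 of the 15 higher genes, Six6, and for 10 of the 15 lower genes, and at 24 h for 5 and 3 of them. Their medians were -0.22 and -0.09 at 6 h and -0.19 and 0.34 at 24 h, for the higher and the lower genes. The genes were chosen by their 12 h values, so the 12 h side of these pairs is set by the rule. Over all 27022 probe sets the 12 h effect had correlations of 0.02 with the 1 h effect, -0.13 with the 3 h effect, -0.11 with the 6 h effect and -0.20 with the 24 h effect, across probe sets that share no arrays between times but are not independent of each other.

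Other genes that the study names were mostly within the spread of the arrays at 12 h. Ptgds, the brain prostaglandin D2 synthase, read 6803, 4988 and 7829 in EB-treated mice, against 5995, 5437 and 4713 in vehicle-treated mice, with overlap (log2 fold change 0.26). Nedd4, a ubiquitin ligase, was separate by a small margin, with 1945, 1811 and 1924 in EB-treated mice, against 1772, 1527 and 1666 in vehicle-treated mice (0.20). Klc1, a kinesin light chain, stood at 0.07 on the scaled signals and at -0.08 on the unscaled signals. Apod, Igf2, Fn1 and Vtn stood at 0.61, 0.47, 0.39 and 0.26, all with overlap and with EB replicate 2 under every vehicle array. Meis2, a homeobox factor, read 282, 265 and 92.9 in EB-treated mice, against 419, 439 and 371 in vehicle-treated mice, at -1.10 on the log2 scale (limma adjusted p = 0.84), a value that became -0.58 without EB replicate 3. Neurod6, a neurogenic factor, read 9.22, 68.4 and 70.2 in EB-treated mice, against 89.7, 57.4 and 107 in vehicle-treated mice, and its log2 fold change of -1.21 became -0.24 without EB replicate 1.

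Markers of the membranes and of regions next to the hypothalamus varied between single arrays. Leptomeningeal fibroblast markers had a mean level of 1.22, 0.08 and 1.03 in EB-treated mice, against 0.51, 0.30 and -0.13 in vehicle-treated mice (log2 units from the mean of all 30 arrays). EB replicates 1 and 3 thus lay above all vehicle arrays and EB replicate 2 lay below 2 of them. Of the 24 measured, 23 had a positive log2 fold change, with a median of 0.58, 2 (Foxd1 and Foxc1) had an unadjusted p under 0.05, and none had separate groups. Of all genes 47.2% were positive and 3.08% higher at that p. Their summed signal was 13188 to 21693 in EB-treated mice and 12731 to 16475 in vehicle-treated mice, and 0 of the 24 were below the signal filter. Igf2, Apod, Ptgds and Dcn belong to this list, and Dcn read 675, 235 and 539 in EB-treated mice, against 327, 257 and 191 in vehicle-treated mice. Without EB replicate 2 the list had 12 members with an unadjusted p under 0.05 and a median of 0.93, and without EB replicate 1 it had 0 and a median of 0.31. It also had 0 without EB replicate 3 and without vehicle replicate 2 or 3. At 24 h the median of this list was -2.05, and for 22 of the 24 the difference between the 12 h and 24 h effects passed, beside 1.58% of all probe sets, or 1.24% with the 12 h effect above. Extracellular matrix genes followed, with 26 of 31 positive, a median of 0.30 and 2 (Col5a2 and Sparc) at an unadjusted p under 0.05, beside the same 47.2% and 3.08%. How far the membranes account for the level of Timp3, Gas1, Ddr2 or the matrix genes was not tested.

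Transcription factors of the mammillary region, at the caudal edge of the dissection, varied widely among the EB arrays. All 11 measured had a negative log2 fold change, beside 47.2% of all genes with a positive one, and the median was -0.60. Lhx5 read 47.3, 72.8 and 68.5 in EB-treated mice, against 101, 76.5 and 105 in vehicle-treated mice, and with Uncx and Barhl2 it made up the 3 with an unadjusted p under 0.05, beside 2.93% of all genes lower at that level. The mean level of the list was -1.11, -0.09 and 0.34 in EB-treated mice, against 0.40, -0.01 and 0.41 in vehicle-treated mice, so that EB replicate 1 was far below the rest and EB replicate 3 was among the vehicle arrays. Their summed signal was 710.3 to 2001 in EB-treated mice and 1449.7 to 1895 in vehicle-treated mice, and 3 more factors (Foxa2, Lmx1a and Sim2) were below the signal filter. Without EB replicate 1, 4 of the 11 were positive, the median was -0.19 and 0 had an unadjusted p under 0.05, whereas without EB replicate 3 it was 7.

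Thalamic markers, of the neighbouring diencephalon, split both groups. Tcf7l2 read 257, 919 and 204 in EB-treated mice, against 701, 199 and 679 in vehicle-treated mice, and the list had a summed signal of 4424 to 6947 in EB-treated mice and 5342 to 6638 in vehicle-treated mice. The cortical factor Tbr1 read 36.0, 42.6 and 5.73 in EB-treated mice, against 59.0, 85.3 and 66.4 in vehicle-treated mice, without overlap. The 10 measured telencephalic markers had a median of -0.17, with 4 positive and 0 at an unadjusted p under 0.05. Their mean level was -0.42, 0.03 and -0.29 in EB-treated mice, against 0.14, 0.17 and 0.17 in vehicle-treated mice. All EB arrays thus lay below all vehicle arrays for this list by mean level. By summed signal the groups overlapped, with 1611, 1405 and 1362 in EB-treated mice, against 1545, 1525 and 1448 in vehicle-treated mice. The mean level includes low single signals, such as Tbr1 at 5.73 in EB replicate 3 and Neurod6 at 9.22 in EB replicate 1. For the mammillary list EB replicate 1 was lowest of the EB arrays and EB replicate 3 highest. Hcrt had the opposite order, with 86.6, 63.6 and 51.6 in EB replicates 1 to 3. Pmch had the same order as the mammillary list, with 681, 706 and 726. The part of the dissection in the differences was not tested.

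Glial genes had a few members on the higher side. Of 15 astrocyte and radial glia markers 5 were higher and 0 lower at an unadjusted p under 0.05, beside 3.08% and 2.93% of all genes: Gfap, Agt, Hes5, Gja1 and Mlc1. Hes5, a Notch target, was the one without overlap, with 296, 278 and 287 in EB-treated mice, against 162, 166 and 223 in vehicle-treated mice. Gfap, the astrocyte filament gene, rested on 1 array, with 329, 97.7 and 109 in EB-treated mice, against 70.5, 120.2 and 61.7 in vehicle-treated mice. The list median was 0.09, and -0.06 on the unscaled signals. Of 12 ependymal and tanycyte markers 4 were higher and 0 lower, beside the same 3.08% and 2.93%, among them Dio2, the deiodinase of tanycytes and astrocytes that activates thyroid hormone. Dio2 read 69.9, 44.8 and 60.3 in EB-treated mice, against 27.6, 39.0 and 29.8 in vehicle-treated mice, without overlap (log2 fold change 0.85, SE 0.26, limma adjusted p = 0.58). Lhx2, a tanycyte factor, read 150 (149.9), 183 and 152 in EB-treated mice, against 117, 102 and 131 in vehicle-treated mice. All 15 microglia and macrophage markers had a positive log2 fold change, beside 47.2% of all genes, with a median of 0.30. At an unadjusted p under 0.05 were 3 (C1qc, C1qb and Tmem119), beside 3.08% of all genes higher, and none had separate groups. Their mean level was 0.81, 0.07 and 0.53 in EB-treated mice, against 0.26, 0.21 and -0.01 in vehicle-treated mice, the same order of EB arrays as for the membrane markers. Without EB replicate 1 the number at an unadjusted p under 0.05 was 0, and without EB replicate 2 it was 8.

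**Figure D4:**
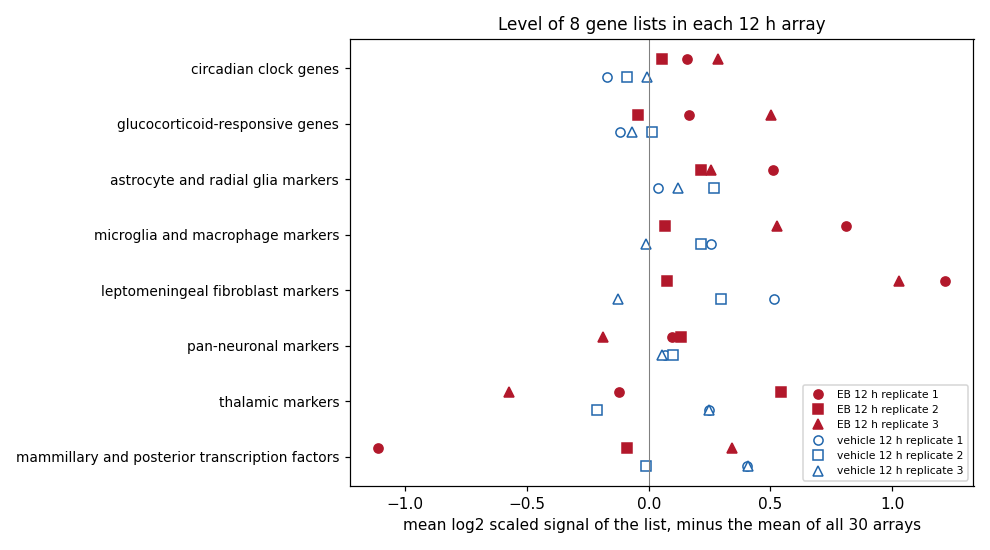
Mean log2 scaled signal of 8 gene lists in each 12 h array, minus the mean of all 30 arrays (x axis, log2 units), with filled symbols for EB, open symbols for vehicle, and circle, square and triangle for replicates 1, 2 and 3. For the clock list the 3 EB arrays lie above the 3 vehicle arrays, and in the leptomeningeal and mammillary lists single EB arrays lie far from the others of their group. Among lists not drawn, the EB arrays also lie above the vehicle arrays for the arcuate, hypophysiotropic, immediate early and pituitary lists. They lie below them for the lateral hypothalamic and telencephalic lists. The lateral hypothalamic mean includes Hcrt and Pmch, and no mean without them was taken.

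Neuronal and transmitter genes had few members at an unadjusted p under 0.05, which 3.08% of all genes reached as higher and 2.93% as lower. Of 15 pan-neuronal markers 0 reached it, and their median was -0.06. None of 9 GABA and glutamate genes, of 8 prostaglandin genes, of 16 endothelial, 10 mural and 10 oligodendrocyte lineage markers reached it either, with medians of 0.05, 0.07, 0.07, 0.05 and 0.02. Of 17 immediate early genes 1 was higher, Btg2, an antiproliferative gene, with 137, 146 and 199 in EB-treated mice, against 128, 102 and 119 in vehicle-treated mice. One cell cycle gene of 18, Pcna, and 1 apoptosis gene of 13, Bcl2, a survival factor, were higher at an unadjusted p under 0.05. Bcl2 read 246, 283 and 252 in EB-treated mice, against 223, 202 and 230 (229.6) in vehicle-treated mice, without overlap (log2 fold change 0.26). Of 18 hypothalamic transcription factors, Six6 and Nkx2-1 were higher and Sim1, a factor of the paraventricular nucleus, was lower, with 147, 240.0 and 271 in EB-treated mice, against 266, 251 and 352 in vehicle-treated mice, with overlap.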

How the data were processed

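Whole hypothalamus RNA was measured on 30 GeneChip Mouse Genome 430 2.0 arrays, 3 individual mice in each of 10 groups. The values the authors deposited are linear MAS5 intensity, one signal per probe set. The MAS5 version is not given in the sources used here. No array column was without a sample (0 columns). From the deposited intensities, all arrays were brought to a common median, signals under 1 were set to 1, and log2 was taken. Differences are thus relative to the array median. Without the 64 control probe sets and the dimmest 40%, the tests covered 27022 of 45037 probe sets, with a mean signal above 21.9.

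The 10 group means over all 30 arrays were estimated with limma 3.58.1 under R 4.3.3 (eBayes with trend), and Benjamini-Hochberg adjustment covered all 27022 probe sets; no p is adjusted over a list. The standard errors share the spread of all groups. The methods' test was a two-factor model on the deposited linear signals, without moderation. Its spread was shared by all 30 arrays, whose deposited medians were highest at 12 h. Single array measures were compared by exact permutation tests, two-sided. The number of arrays limits the precision. Replicates are individual mice, per the labels biological replicates.

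Members and the 30 gene lists were chosen with earlier results of these data known. Lists use each gene's brightest probe set. Named genes are those the paper names and Pmch, the 15 higher and 15 lower by the rule given in the report, up to 5 called by array weights or the methods' test, and up to 3 of each list with the smallest p. Other list members named in the text were chosen after their values were seen. Alternatives were unscaled values, quantile normalization, a pseudocount, other filters, array weights, only the 6 arrays, a replicate block, omission of each array in turn, and the methods' test. Gene symbols came from the platform's annotation: 34945 probe sets have 1 symbol, 932 several and 9160 none, and 0 changed on update by gene identifier. One gene of the paper is not reported here, and Tmed2 was below the signal filter. Promoter windows are from RefSeq (GRCm38.p6); 12 of the 15 higher and 11 of the 15 lower genes matched. Simulated arrays with 200 of 27022 probe sets changed were used to test the fit. Figures were drawn with matplotlib.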

Additional observations from a re-analysis of the deposited data

Results flagged for a closer look

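Of 116 probe sets of named genes considered, 25 had an effect at 12 h that differed from the effect at 24 h (adjusted p under 0.05 from limma for the difference itself), beside 1.58% of all probe sets. For no gene did the effect at 12 h differ from that at 6 h or from the mean of the other times after adjustment. The largest and list genes were chosen by their 12 h values, which sets the 12 h side of the difference. Ptgds, Apod, Igf2, Fn1 and Vtn were picked in the paper as lower with EB at 24 h in these same arrays. That choice sets the 24 h side of their differences. The 12 h effect was above the 24 h effect for 17 of the 25. The difference, 12 h minus 24 h on the log2 scale, was 4.43 for Ptgds, 2.95 for Lepr, 2.55 for Apod, 2.31 for Igf2, 1.54 for Fn1 and 1.31 for Vtn, genes whose 24 h log2 fold changes were -4.17, -2.21, -1.93, -1.85, -1.15 and -1.05. It was 1.58 for Foxd1, 1.48 for Foxc1, 1.20 for Igfbp2 and 1.58 for Ddr2, also with negative 24 h values. It was 1.27 for Fcgr3, 1.27 for Sh3pxd2a, 1.03 for Sdc4, 0.86 for Ccdc93, 1.37 for Hspb1, 0.62 for Hspa8 and 0.51 for Nedd4. On the other side, the difference was -1.47 for Cfap298, -1.12 for Runx1t1, -1.12 for Gfra2, -0.97 for Minpp1, -1.01 for Hnrnpdl, -0.99 for Grin2b, -1.03 for Pcgf6 and -0.93 for C1qtnf2, all with 24 h values between 0.30 and 0.44. The scaled 18S ribosomal RNA signals were 618 to 1134 in the 12 h EB and vehicle arrays and 1771 to 2187 in the 24 h EB arrays, and their part in these differences was not tested. Groups of 3 arrays were too small for a test of single outlying arrays.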

How the results depend on the processing

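The count of 0 probe sets called at 12 h was 0 under quantile normalization, the pseudocount of 16, both filters, only the 6 arrays and unscaled values; it was 23 with array weights, 518 by the methods' test, and 0 to 9 when arrays were left out in turn (9 without vehicle replicate 2, among them Pon2 and Mettl7a2, and 2 without EB replicate 2, Slc25a26 and Baz1b). Unadjusted calls were 89 higher and 1452 lower unscaled, 1697 and 1539 with array weights, 353 and 6226 by the methods' test, and ranged from 610 to 1149 and from 414 to 1370 when arrays were left out (414 without vehicle replicate 3, 569 without EB replicate 3). Probe sets at 2-fold or more and at 0.5-fold or less were 9 and 20 unscaled, 1633 and 1612 without the filter, 6 and 2 with the lowest 60% left out, and ranged from 13 to 81 and from 11 to 48 with arrays left out, both highest without EB replicate 2. The 12 h effect against the other times was called for 123 probe sets with array weights and for 0 to 87 with arrays left out (86 without vehicle replicate 2, 87 without EB replicate 2). For Klc1 the log2 fold change of 0.07 turned to -0.0755 with the deposited values without scaling, and to -0.0683 in the methods' test (log2 ratio of deposited means). For 43 named probe sets, 618 values under the alternatives kept direction and side of the threshold and 22 passed, 20 of them by the methods' test. Same-numbered arrays had correlations of deviations of -0.05, 0.09 and 0.08, so the numbers were not used to pair mice; with the replicate block the count called was 0. Of the list medians under alternatives, 394 moved by less than the spread between arrays and 24 by more. Dim probe sets, below 21.9, were not tested, and Greb1 lies not far above that level.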

Other observations

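Lists not described in the report had few members at an unadjusted p under 0.05. Of 11 heat shock and cold-inducible genes 1 was higher and 0 lower at that p, beside 3.08% and 2.93% of all genes. It was Hspb1, a small heat shock protein, with 214, 115 and 244 in EB-treated mice, against 133, 111 and 110.6 in vehicle-treated mice. The list median was 0.02. Choroid plexus markers had a median of -0.09 over 7 measured, and Ttr, their defining gene, read 64.4, 28.2 and 138 in EB-treated mice, against 44.3, 288 and 39.6 in vehicle-treated mice. Of 16 listed erythroid and blood markers 2 were measured, with a median of 0.04, and 2 of 12 pituitary markers, with a median of 0.15.

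Ndrg1, a stress-responsive gene, and Mettl7a2, called with array weights, were separate between groups, with vehicle replicate 2 far above the other vehicle arrays. Ndrg1 read 55.8, 68.5 and 55.9 in EB-treated mice, against 10.6, 41.7 and 8.61 in vehicle-treated mice. Mettl7a2 read 60.9, 52.9 and 76.4 in EB-treated mice, against 12.6, 50.3 and 13.1 in vehicle-treated mice. The 4 other Ndrg1 probe sets stood between 0.26 and 0.36, against 1.94 for this one.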
